A study of Homo sapiens with 15 samples.

Results

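The genes described here are 47 genes of autophagy and mitophagy, taken as a list of gene symbols that covers the core autophagy machinery, its cargo receptors and the receptors that mark mitochondria for removal. All 47 were found by gene identifier among the 60649 genes of the count table. They were followed in K562 cells, an established human line of chronic myeloid leukaemia, exposed to martinostat, an inhibitor of histone deacetylases. The 5 groups were untreated cells and cells kept for 24 h in 0.15, 0.25, 0.5 or 1 µM martinostat, with 3 libraries per group and 15 in all. All groups were the same line in the same medium with serum and antibiotics, the labels number the libraries as biological replicates, and the labels name no vehicle for the untreated cells. The authors describe levels of cell cycle genes from this sequencing as means of 3 independent experiments. Whether replicates came from separate cultures is not stated beyond this, so p-values measure the spread between these libraries.

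In autophagy, a membrane closes around cytoplasm or an organelle and fuses with the lysosome, where the content is degraded. The ULK1 kinase complex starts the process, the PIK3C3 lipid kinase complex marks the membrane with phosphatidylinositol 3-phosphate, and lipid transfer proteins let it grow. A ubiquitin-like conjugation system, in which ATG7 and ATG3 act as the E1 and E2 enzymes, attaches proteins of the ATG8 family (the LC3 and GABARAP genes) to the membrane. Cargo receptors such as SQSTM1 bind both ubiquitinated cargo and ATG8 proteins, and mitophagy is the same route applied to mitochondria, flagged by PINK1 or by receptors such as BNIP3L in their outer membrane. Autophagy is regulated largely at the protein level, and its genes are read here at the level of mRNA only.

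The libraries held 23755510 to 32805574 assigned counts. Replicate 3 at 0.25 µM and replicate 3 at 0.5 µM stood apart from the others: on principal component 3 of all genes they lay at 70.1 and 75.4, and the remaining 13 at 16.0 or lower. Levels are given as CPM, the usual count per library size, with sizes scaled by TMM, the trimmed mean of M values. The erythroid markers of K562 summed to between 2603 and 2829 CPM in untreated libraries and to between 751 and 901 CPM at 1 µM, where GATA1 was at 18.8 CPM against 328 CPM. Of these 8 markers, 7 reached a mean of 1 CPM in every group. Not all of them fell: HBG1 stood at 109 to 147 CPM in untreated libraries and overlapped this at 1 µM (69.0 to 144 CPM). HBE1 had 13 counts in all untreated libraries together and 42 at 1 µM. Of 3 B cell markers, MS4A1 had 0 counts in all libraries at 0, 0.15 and 0.25 µM, and their sum stayed at 8.97 CPM or lower in all libraries. The sum of 3 T cell markers was 3.51 to 4.62 CPM in untreated libraries, 15.6 to 22.6 CPM at 0.15 µM and 1.84 to 4.32 CPM at 1 µM. The 3 fibroblast markers, at 21.7 to 25.3 CPM in untreated libraries, reached 301 to 487 CPM at 1 µM, most of it COL1A1, and the 4 epithelial markers summed to 1138 to 1268 CPM in untreated libraries and to 3444 to 5364 CPM at 1 µM, most of it KRT8. In each list 1 gene went the other way. COL1A2 went from 16.5 to 20.7 CPM in untreated libraries to 8.22 to 12.4 CPM at 1 µM. EPCAM went from 130 to 148 CPM to 18.6 to 22.3 CPM. The part of these marker shifts in the values of the autophagy genes was not tested, and in bulk RNA fewer cells of a kind and less RNA per cell cannot be told apart.

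MAP1LC3A had 0 to 12 counts per library and did not pass the filter on low counts, so 46 members were tested. With 0.15 µM martinostat, more members were lower than higher, and with 0.5 and 1 µM the order turned, whereas with library totals in place of TMM the higher calls outnumbered the lower ones at each dose. At 0.15 µM, the quasi-likelihood test of edgeR, adjusted over all genes after Benjamini and Hochberg (adjusted p under 0.05), called 8 members higher and 19 lower, that is 17.4% and 41.3%. Of all 23711 genes tested, 31.9% were called higher and 19.4% lower. At 0.25 µM the test called 14 members higher and 15 lower, with 37.4% and 24.8% of all genes. At 0.5 µM it called 19 higher and 11 lower, with 39.4% and 27.6% of all genes, and at 1 µM 19 higher and 14 lower, with 38.8% and 27.5% of all genes. The median log2 fold change of the tested members was -0.29 at the lowest dose and -0.12, 0.22 and 0.21 at the next ones. The median of all genes lay between 0.28 and 0.34 at all doses. Most members are well expressed genes: 43 of those tested had a mean of at least 10 CPM, and of the 10124 genes with that mean 21.1% were called higher and 40.2% lower at 0.15 µM, and 26.4% and 48.4% at 1 µM. Set against genes of that level, the members' shares at 0.15 µM were close to the background, and at 1 µM 41.3% of the members were higher and 30.4% lower.

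The highest dose was also compared directly with the lowest, a contrast of these 6 libraries in the fit of all 15, in which the untreated libraries enter the filter, the scaling and the estimate of the spread. At 1 µM, 23 members were higher than at 0.15 µM and 4 were lower, or 50% and 8.70% of those tested, where 21.5% and 23.1% of all genes and 22.8% and 33.9% of the genes with at least 10 CPM were called. Of these calls, those of TAX1BP1, ATG3 and ATG4D were each lost without any 1 of the untreated libraries. The members' median was a log2 difference of 0.45, with 0.02 for all genes. The step lay mainly between 0.25 and 0.5 µM, where 18 members were called higher and 3 lower (all genes, 14.4% and 16%). Between 0.15 and 0.25 µM, 4 were higher and 1 lower (all genes, 4.96% and 7.32%). Between 0.5 and 1 µM edgeR called 0 members and 0% of all genes, DESeq2 also called 0, and the lowest unadjusted p of a member in edgeR was 0.172. Of the 23711 genes tested, 372 had an unadjusted p under 0.05, fewer than this threshold gives where no gene differs. In the plot of fold changes by role, the median of the role went from negative at 0.15 µM to positive at 1 µM in membrane supply (-0.26 and 0.55), the ATG8 family (-0.37 and 0.36) and the cargo receptors (-0.29 and 0.96). It was negative at all doses in the conjugation genes and the PIK3C3 complex and positive at all doses in the initiation complex and the fusion genes and co-factors. These medians were taken with TMM factors only. Other scalings move all values against untreated cells together, so the signs of the smaller medians can depend on the scaling. The log2 fold change of AMBRA1 at 0.15 µM, for example, ranged from -0.22 to 0.21 over the alternatives.

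**Figure D1:**
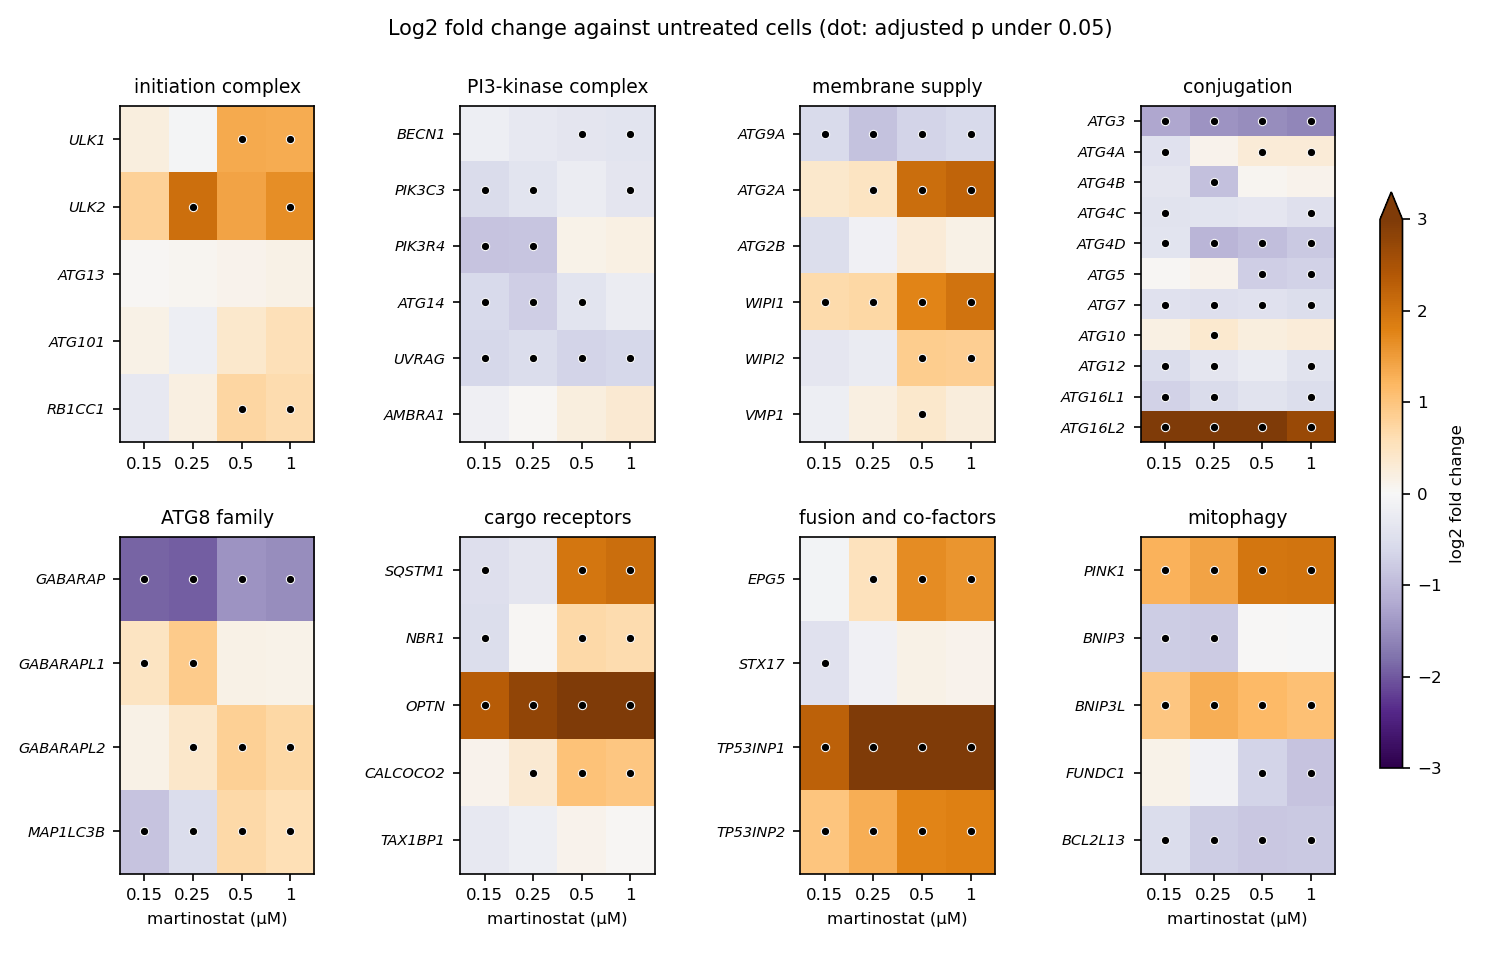
Log2 fold change of the 46 tested members against untreated cells, by role (panels) and martinostat dose in µM (columns), with a dot where edgeR's adjusted p was under 0.05. Colours run from purple (lower) to orange (higher) and saturate at 3. At 1 µM, 7 of the 9 cargo receptors and co-factors are called higher, and 7 of 11 conjugation genes lower, against 3 with library totals. Among all genes with at least 10 CPM, 26.4% are called higher and 48.4% lower at that dose.

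How many members counted as lower than untreated depended on the scaling of the libraries. TMM factors were 0.785 to 0.828 in the untreated libraries and 0.950 to 1.28 in the treated ones, so the scaling moves all treated libraries against the untreated ones together. With library totals alone, 16 members were called higher and 5 lower at 0.15 µM, and 29 and 5 at 1 µM, while the median of all genes rose to 0.64 and 0.67. In this setting 40.4% of all genes were called higher and 8.97% lower at 0.15 µM. TMM factors restricted to genes of 10 CPM or more gave 15 and 6 at 0.15 µM and 30 and 5 at 1 µM, and DESeq2-type factors (RLE) gave 8 and 22 at 0.15 µM and 21 and 13 at 1 µM. All 8 members called higher at 0.15 µM and all 19 at 1 µM were called under each of the 4 scalings. Of the lower calls, 5 members held under all 4 at 0.15 µM (ATG3, BNIP3, GABARAP, MAP1LC3B and PIK3R4) and 5 at 1 µM (ATG3, ATG4D, ATG5, BCL2L13 and FUNDC1). Between 0.15 and 1 µM, 21 of 23 higher and 2 of 4 lower members were called under all 4 scalings. The bars of called members by scaling show these counts.

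**Figure D2:**
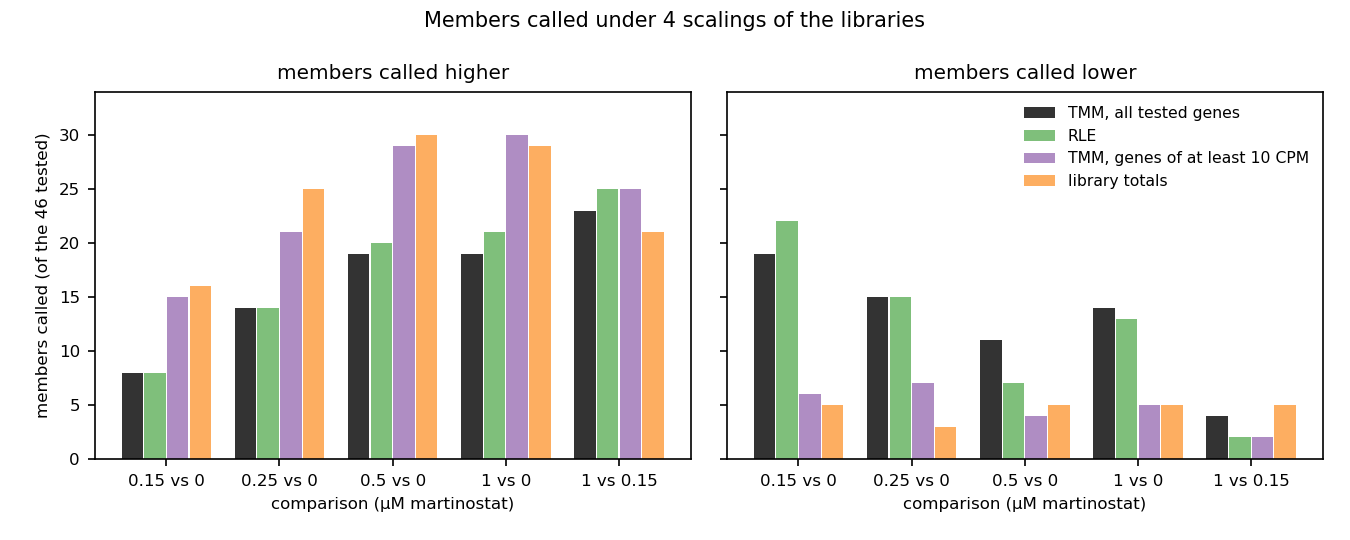
Number of members called higher (left) or lower (right) by edgeR under 4 scalings of the libraries, for each dose against untreated cells (0) and for 1 against 0.15 µM. At 0.15 µM the lower calls range from 5 to 22, whereas for 1 against 0.15 µM the higher calls range from 21 to 25.

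Promoter sequences are given for 4 members because the results turn on them: SQSTM1 and MAP1LC3B, whose direction turned between the doses, GABARAPL1, which moved against MAP1LC3B, and ATG3, whose fold change at 1 µM was the lowest among members. They are RefSeq sequences of GRCh38.p14, 5′ to 3′ on the strand of the gene, from 250 bases before the start to 50 bases from the start on, at chr5:179806143-179806442 (plus strand), chr16:87392086-87392385 (plus), chr12:10212627-10212926 (plus) and chr3:112561913-112562212 (minus), respectively. Capitals mark every match, on either strand, of the GC box GGGCGG, the E-box CACGTG, the CLEAR core TCACGTGA, which holds an E-box and is bound by TFEB and its relatives, the cyclic AMP response element TGACGTCA, and the antioxidant response element core TGACNNNGC.
SQSTM1: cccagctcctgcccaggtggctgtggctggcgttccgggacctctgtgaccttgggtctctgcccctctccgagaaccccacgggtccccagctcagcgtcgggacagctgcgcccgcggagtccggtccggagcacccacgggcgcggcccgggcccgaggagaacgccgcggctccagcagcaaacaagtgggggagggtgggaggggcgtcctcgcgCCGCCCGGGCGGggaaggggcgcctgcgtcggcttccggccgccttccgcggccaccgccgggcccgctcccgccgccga
MAP1LC3B: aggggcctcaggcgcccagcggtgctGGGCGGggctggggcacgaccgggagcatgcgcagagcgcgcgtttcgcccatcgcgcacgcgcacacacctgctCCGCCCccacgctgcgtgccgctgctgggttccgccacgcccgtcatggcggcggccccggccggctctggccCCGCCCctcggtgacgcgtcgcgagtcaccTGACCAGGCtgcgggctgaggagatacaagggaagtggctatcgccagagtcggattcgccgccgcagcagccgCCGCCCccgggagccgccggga
GABARAPL1: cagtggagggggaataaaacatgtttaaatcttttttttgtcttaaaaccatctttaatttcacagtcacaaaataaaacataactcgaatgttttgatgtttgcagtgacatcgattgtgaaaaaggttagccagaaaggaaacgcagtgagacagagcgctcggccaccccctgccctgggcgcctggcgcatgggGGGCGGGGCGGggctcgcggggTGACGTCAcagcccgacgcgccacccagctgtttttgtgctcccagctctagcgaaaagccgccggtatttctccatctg
ATG3: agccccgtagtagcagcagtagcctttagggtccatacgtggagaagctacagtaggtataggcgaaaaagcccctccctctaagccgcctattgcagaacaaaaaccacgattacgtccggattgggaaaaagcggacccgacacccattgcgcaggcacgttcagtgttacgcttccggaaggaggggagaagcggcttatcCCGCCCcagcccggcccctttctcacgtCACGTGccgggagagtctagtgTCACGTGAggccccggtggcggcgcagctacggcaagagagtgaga

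A promoter sequence was at hand for 38 of the members and for 27305 genes in all. The E-box was present in 3 members (ATG14, ATG3 and BNIP3), or 7.89%, and in 7.43% of all promoters. In ATG3 it occurred 18 bases before the start and again from base 5 after it, the latter within the CLEAR core, which 1.04% of all promoters hold and no other member. GABARAPL1 held the cyclic AMP response element 30 bases before the start, and TP53INP2 was the other member with it (1.98% of all promoters). The antioxidant response element core was present in 3 members (ATG101, CALCOCO2 and MAP1LC3B), or 7.89%, against 13.6% of all promoters, and the GC box in 26, or 68.4%, against 44.6%. These matches are a description of letters in a 300-base window and say nothing of binding.

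The initiation complex phosphorylates the next steps in response to nutrient and energy signals. Of its 5 members, 3 were higher at 1 µM (38.8% of all genes, 26.4% of those with at least 10 CPM). No adjusted p of a member at 0.15 µM was below that of RB1CC1 (0.18), although with library totals ULK1 and ATG13 were called higher there and all 5 at 1 µM. ULK1, its kinase, stood at 31.0, 31.3 and 32.8 CPM in untreated libraries, at 35.0, 33.9 and 41.9 CPM at 0.15 µM and at 29.4, 28.3 and 34.1 CPM at 0.25 µM. At 0.5 µM it stood at 65.2, 80.0 and 95.3 CPM and at 1 µM at 92.9, 63.4 and 81.2 CPM, above all libraries of the other groups. With 1 µM its log2 fold change was 1.32 (SE 0.16, edgeR adjusted p = 9.6e-07). RB1CC1, the scaffold of the complex, stood at 111, 115 and 118 CPM in untreated libraries, at 113, 102 and 64.9 CPM at 0.15 µM, at 110.2, 156 and 129 CPM at 0.25 µM, at 184, 189 and 201 CPM at 0.5 µM and at 174, 165 and 201 CPM at 1 µM. Its libraries at 0.5 and 1 µM did not overlap those of any lower dose, and the log2 fold change at 1 µM was 0.65 (SE 0.18, edgeR adjusted p = 0.00316). ULK2, the second kinase gene, was nearly silent with 2 to 30 counts per library. It averaged 0.197 ± 0.141 CPM without martinostat and 0.626 ± 0.270 CPM with 1 µM (SD, n = 3), which overlapped, and its call at 1 µM (log2 fold change 1.64, SE 0.62, edgeR adjusted p = 0.0252) was lost without replicate 2 or 3 at 1 µM and without replicate 1 or 2 of the untreated cells. ATG13 and ATG101, the partners that hold the complex together, were called at no dose, with log2 fold changes at 1 µM of 0.16 and 0.57. A gene on the other strand covers 53.0% of the coding bases of ATG101.

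In the PIK3C3 complex no member was called higher than untreated at any dose. At 0.15 µM 4 of its 6 members were lower, and at 1 µM 3 were, although with library totals 1 was lower at 0.15 µM and 0 were lower and 2 higher at 1 µM. With TMM factors the lower shares were 66.7% and 50%, against 40.2% and 48.4% of the genes with at least 10 CPM. At 1 µM the share was thus close to that background. PIK3C3, the lipid kinase itself, stood at 45.4, 54.8 and 52.9 CPM in untreated libraries, at 34.2, 35.7 and 34.6 CPM at 0.15 µM, at 35.0, 36.0 and 45.6 CPM at 0.25 µM, at 40.1, 42.5 and 48.9 CPM at 0.5 µM and at 39.5, 37.8 and 40.8 CPM at 1 µM. Its log2 fold change at 1 µM was -0.37 (SE 0.14, edgeR adjusted p = 0.0217) and the call was lost in 9 of 24 alternatives, among them RLE factors, library totals, and the fits without replicate 1 or 2 at 1 µM or without untreated replicate 2 or 3. UVRAG, a subunit of the complex at endosomes and late autophagosomes, stood at 38.1, 44.3 and 45.0 CPM in untreated libraries and between 24.0 and 33.6 CPM in all 12 treated ones, so no treated library reached the untreated range. It was lower by a log2 fold change of -0.63 at 1 µM (SE 0.15, edgeR adjusted p = 0.00116), a call not made with library totals. PIK3R4, the regulatory subunit, fell by 0.88 on the log2 scale at 0.15 µM. It averaged 64.0 ± 5.78, 34.9 ± 5.26, 35.3 ± 7.52, 69.9 ± 1.31 and 71.9 ± 6.07 CPM from untreated to 1 µM (SD, n = 3). Between 0.15 and 1 µM it rose by 1.04 (SE 0.16, edgeR adjusted p = 3.05e-05). BECN1, the scaffold of the complex, averaged 47.9 CPM untreated and 36.5 CPM at 1 µM, and ATG14, which directs the complex to new autophagosomes, 15.4 and 13.1 CPM. AMBRA1, a regulator of BECN1, had log2 fold changes of -0.15 at 0.15 µM and 0.35 at 1 µM, neither of them called.

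Among the 6 genes that supply membrane, ATG2A changed most. ATG2A transfers lipids into the growing membrane, and it stood at 90.4, 87.0 and 99.98 CPM in untreated libraries, at 127, 108 and 129.5 CPM at 0.15 µM and at 141, 145 and 101 CPM at 0.25 µM. It then stood at 384, 469 and 306 CPM at 0.5 µM and at 502, 345 and 438 CPM at 1 µM, and all treated libraries lay above the untreated ones. It rose by a log2 fold change of 2.21 at 1 µM (SE 0.19, edgeR adjusted p = 6.43e-09) and 1.58 between 0.25 and 0.5 µM (SE 0.19, edgeR adjusted p = 3.02e-06). Its paralogue ATG2B averaged 31.0, 22.0, 28.4, 38.2 and 34.4 CPM from untreated to 1 µM and was called at no dose against untreated cells. WIPI1 and WIPI2 bind phosphatidylinositol 3-phosphate on the young membrane. WIPI1 rose at all 4 doses, from 3.59 ± 0.459 to 14.5 ± 0.412 CPM at 1 µM (SD, n = 3), and 28.1% of its exon bases lie under genes of the opposite strand. WIPI2 averaged 129 CPM untreated, 102 CPM at 0.15 µM and 233 CPM at 1 µM, where it was higher by a log2 fold change of 0.85 (SE 0.15, edgeR adjusted p = 8.32e-05). ATG9A, a lipid scramblase carried in vesicles, stood at 99.5, 103 and 106 CPM in untreated libraries, at 71.8, 66.1 and 70.3 CPM at 0.15 µM, at 57.7, 64.3 and 42.5 CPM at 0.25 µM, at 67.7, 81.2 and 47.3 CPM at 0.5 µM and at 70.8, 63.8 and 69.2 CPM at 1 µM. Every treated library lay below the untreated ones, with a log2 fold change at 1 µM of -0.60 (SE 0.17, edgeR adjusted p = 0.005), a call not made with library totals, and 38.8% of its exon bases are shared with a gene of the same strand. VMP1, a scramblase of the endoplasmic reticulum, with means of 130.0 CPM untreated and 154 CPM at 1 µM, was called higher at 0.5 µM only.

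Of the conjugation genes, 7 of 11 were called lower at 0.15 µM and 7 at 1 µM, with 1 and 2 higher, although with library totals 1 and 3 were lower and 3 and 3 higher. With TMM factors the lower share was 63.6% at both doses, against 40.2% and 48.4% of the genes with at least 10 CPM. ATG3, the E2-like enzyme that passes ATG8 proteins to the lipid, is at chromosome 3, 112532510 to 112562046, on the minus strand. It stood at 75.4, 80.5 and 78.0 CPM in untreated libraries, at 33.7, 33.7 and 31.6 CPM at 0.15 µM and at 29.7, 31.7 and 25.1 CPM at 0.25 µM. It stood at 30.6, 27.6 and 23.7 CPM at 0.5 µM and at 25.2, 27.9 and 25.4 CPM at 1 µM, so all treated libraries lay far below the untreated ones. Its log2 fold change was -1.24 at 0.15 µM (SE 0.13, edgeR adjusted p = 3.91e-07) and -1.57 at 1 µM (SE 0.14, edgeR adjusted p = 6.38e-09), under all 4 scalings. The further difference between 0.15 and 1 µM, -0.33 (edgeR adjusted p = 0.0479), was lost in 19 of 24 alternatives.

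ATG5, which with ATG12 and ATG16L1 forms the E3-like complex, was called lower at 0.5 and 1 µM. It averaged 95.3 ± 3.99, 97.0 ± 9.67 and 103 ± 4.56 CPM at 0, 0.15 and 0.25 µM and 57.6 ± 5.32 and 58.6 ± 2.95 CPM at 0.5 and 1 µM (SD, n = 3). The highest library of the upper doses, at 63.2 CPM, was below the lowest of the others, at 88.6 CPM, and the log2 difference between 1 and 0.15 µM was -0.73 (SE 0.12, edgeR adjusted p = 9.7e-05). ATG12 averaged 58.4 CPM untreated and 43.8 CPM at 1 µM, and ATG7 36.2 and 25.4 CPM. ATG10, the E2-like enzyme of ATG12, was called at 0.25 µM only, where it was higher. The ATG16L paralogues moved apart. ATG16L1 averaged 35.2 ± 3.30 CPM untreated and 24.9 ± 2.28 CPM at 1 µM (SD, n = 3), whereas ATG16L2, at 2.57, 3.01 and 1.92 CPM in untreated libraries, stood at 19.1, 20.2 and 24.3 CPM at 0.15 µM and at 15.6, 14.2 and 31.3 CPM at 0.25 µM. At 0.5 µM ATG16L2 stood at 10.3, 11.8 and 40.9 CPM and at 1 µM at 16.9, 15.0 and 16.1 CPM. All treated libraries exceeded the untreated ones, replicate 3 was the highest at 0.25 and at 0.5 µM, and the log2 fold change at 1 µM was 2.68 (SE 0.49, edgeR adjusted p = 0.000252).

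The ATG4 proteases trim ATG8 proteins before conjugation and release them afterwards. ATG4A stood at 40.6, 42.0 and 40.04 CPM in untreated libraries, at 27.2, 32.7 and 30.6 CPM at 0.15 µM, at 41.2, 48.2 and 41.7 CPM at 0.25 µM, at 50.5, 50.3 and 48.5 CPM at 0.5 µM and at 49.7, 50.1 and 49.3 CPM at 1 µM. It was lower at 0.15 µM (log2 fold change -0.44, SE 0.12, edgeR adjusted p = 0.0052), a call not made with library totals, and higher at 1 µM by a small margin (0.28, SE 0.12, edgeR adjusted p = 0.0463) that was lost in 14 of 24 alternatives. The rise between these doses, 0.72 (SE 0.12, edgeR adjusted p = 8.15e-05), held in all of them. ATG4D went the other way, with 52.2 ± 1.81 CPM untreated, 25.1 ± 4.76 CPM at 0.25 µM and, with 1 µM, 29.8 ± 2.68 CPM (SD, n = 3). ATG4B averaged 101, 78.5, 53.5, 105 and 109 CPM from untreated to 1 µM and was called lower at 0.25 µM only, and its replicate 3 at 0.5 µM, at 144 CPM, stood above the other 2 at 76.5 and 94.2 CPM. ATG4C averaged 25.5 CPM untreated and 18.7 CPM at 1 µM.

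In the ATG8 family, MAP1LC3B and GABARAPL1 moved against each other between the lower and the upper doses. MAP1LC3B encodes LC3B, the usual marker of autophagosomes, and lies on chromosome 16, 87383953 to 87404779, plus strand. It stood at 131, 173 and 173 CPM in untreated libraries, at 91.2, 90.2 and 76.3 CPM at 0.15 µM and at 89.2, 129 and 114 CPM at 0.25 µM. It stood at 264, 279 and 227 CPM at 0.5 µM and at 266, 219.6 and 232 CPM at 1 µM, so the lower doses lay below and the upper doses above all untreated libraries. The log2 fold change was -0.89 at 0.15 µM (SE 0.16, edgeR adjusted p = 0.000159), 0.59 at 1 µM (SE 0.16, edgeR adjusted p = 0.00349) and 1.48 between these doses (SE 0.16, edgeR adjusted p = 7.18e-07), and all 3 calls held in each alternative. GABARAPL1 stood at 30.6, 32.3 and 30.0 CPM in untreated libraries, at 37.7, 42.6 and 48.9 CPM at 0.15 µM, at 58.6, 54.5 and 61.5 CPM at 0.25 µM, at 30.8, 30.1 and 41.9 CPM at 0.5 µM and at 29.6, 37.3 and 35.0 CPM at 1 µM. It was above untreated at the 2 lower doses, with a log2 fold change of 0.91 at 0.25 µM (SE 0.15, edgeR adjusted p = 4.07e-05), and fell by 0.76 between 0.25 and 0.5 µM (SE 0.15, edgeR adjusted p = 0.000734). Between 0.15 and 1 µM GABARAPL1 was not called. GABARAPL2 stood at 63.9, 70.0 and 66.6 CPM in untreated libraries, at 77.5, 74.8 and 71.2 CPM at 0.15 µM, at 78.8, 93.9 and 94.8 CPM at 0.25 µM, at 126, 121 and 107 CPM at 0.5 µM and at 110.3, 115 and 106 CPM at 1 µM. Every treated library exceeded the untreated ones, and the log2 fold change at 1 µM was 0.72 (SE 0.12, edgeR adjusted p = 4.21e-05).

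The counts of GABARAP cannot be read as its level. Of its coding bases, 98.3% lie under another gene in the annotation used here, and only 2 to 34 counts per library were assigned to it. These counts gave 0.654, 1.31 and 0.665 CPM in untreated libraries, 0.0702, 0.247 and 0.378 CPM at 0.15 µM, 0.203, 0.179 and 0.275 CPM at 0.25 µM, 0.397, 0.334 and 0.244 CPM at 0.5 µM and 0.461, 0.345 and 0.104 CPM at 1 µM. The treated libraries lay below the untreated ones (log2 fold change -1.52 at 1 µM, SE 0.61, edgeR adjusted p = 0.0357). GABARAP is included in the counts of lower members above.

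A share within the family does not depend on how libraries are scaled. The CPM of each ATG8 gene were divided by its exon length in kilobases, and its share in the sum of the 5 genes was taken in each library. Because the counts of GABARAP cannot be read as its level, these are shares of the signal counted for the family, in effect among MAP1LC3B, GABARAPL1 and GABARAPL2, and not shares of the whole family. MAP1LC3B made up 47.2%, 51.8% and 53.4% in untreated libraries, 33.96%, 33.5% and 29.6% at 0.15 µM, 30.1%, 36.5% and 32.7% at 0.25 µM, 51.2%, 53.7% and 49.4% at 0.5 µM and 54.4%, 47.9% and 51.0% at 1 µM. Its 6 libraries at the upper doses all exceeded its 6 at the lower doses, by 18.5 percentage points in the mean. A two-sided exact permutation test over these libraries gave p = 0.00216, the smallest that its 924 arrangements allow, and 0.00527 after Benjamini-Hochberg adjustment over the 12 tests of shares. The test pools 2 doses on each side as 6 libraries, and its cut lies where these data show the step, between 0.25 and 0.5 µM. Since MAP1LC3B, GABARAPL1 and GABARAPL2 make up nearly the whole sum, the tests of their shares are not independent. GABARAPL1 made up 12.4% ± 1.13 in untreated cells, 20.2% ± 3.09 and 21.8% ± 2.75 at 0.15 and 0.25 µM, and 8.65% ± 2.31 and 9.06% ± 1.37 at 0.5 and 1 µM (SD, n = 3), a difference of -12.2 points between the upper and the lower doses with the same exact p. GABARAPL2 made up 36.0% ± 2.204 in untreated cells and 46.98% ± 1.11, 44.7% ± 0.539, 39.6% ± 1.19 and 39.5% ± 2.05 with rising dose (SD, n = 3), a difference of -6.27 points with the same exact p. The CPM of GABARAPL2 were nevertheless higher at the upper doses (106 to 126 CPM) than at the lower ones (71.2 to 94.8 CPM). Between the 12 treated and the 3 untreated libraries, the share of GABARAPL2 differed by 6.72 points (exact permutation p = 0.00659, adjusted 0.0132), and that of MAP1LC3B by -8.78 points (exact permutation p = 0.171, adjusted 0.267). The share of GABARAP differed by -0.534 points (exact permutation p = 0.0022, adjusted 0.00527), with the limit on its counts given above. These comparisons with untreated cells pool all doses on the treated side. The MAP1LC3B share averaged 50.8% untreated, 32.3% and 33.1% at 0.15 and 0.25 µM, and 51.4% and 51.1% at 0.5 and 1 µM. Its pooled difference thus describes no single dose. The pooled test cannot show whether its share differed from untreated at the lower doses, which was not tested separately.

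**Figure D3:**
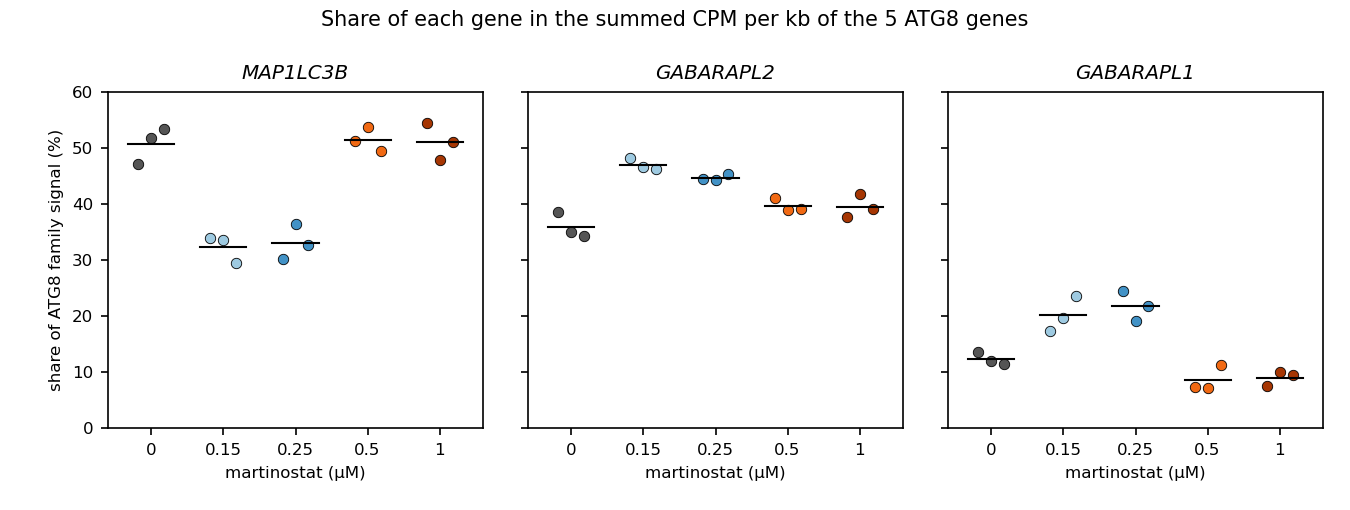
Share in per cent of MAP1LC3B, GABARAPL2 and GABARAPL1 in the summed CPM per kilobase counted for the 5 ATG8 genes, where the counts of GABARAP are not its level, by martinostat dose in µM. Points are libraries and lines are means of 3. MAP1LC3B lies between 29.6% and 36.5% at 0.15 and 0.25 µM and between 47.2% and 54.4% in all other libraries, whereas GABARAPL1 is highest at 0.15 and 0.25 µM.

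The cargo receptors link ubiquitinated cargo to ATG8 proteins, and all 5 were higher at 1 µM than at 0.15 µM, 4 of them under each of the 4 scalings. Between these doses 21.5% of all genes and 22.8% of those with at least 10 CPM were called higher. The call of TAX1BP1 (log2 difference 0.33) did not hold in 14 of 24 alternatives, including library totals and the fits without any 1 library at 0.15 µM, at 1 µM or of the untreated cells. SQSTM1 encodes p62, the receptor that is itself degraded with its cargo, and lies on chromosome 5, 179806398 to 179838078, plus strand. It stood at 147, 138 and 135 CPM in untreated libraries, at 99.5, 92.9 and 107 CPM at 0.15 µM and at 134, 116 and 78.2 CPM at 0.25 µM. It stood at 668, 576 and 389.8 CPM at 0.5 µM and at 595, 665 and 507 CPM at 1 µM. The lower doses lay below and the upper doses far above all untreated libraries, and replicate 3 at 0.5 µM was the lowest of the upper doses. The log2 fold change at 1 µM was 2.07 (SE 0.21, edgeR adjusted p = 4.94e-08), and between 0.25 and 0.5 µM it was 2.32 (SE 0.21, edgeR adjusted p = 1.33e-07). The decrease at 0.15 µM was small, at -0.49 (SE 0.20, edgeR adjusted p = 0.0475), and was lost in 14 of 24 alternatives, of which 11 left out 1 library. With library totals it was -0.13. Genes on the other strand cover 22.4% of the SQSTM1 exon bases.

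OPTN, a receptor in the clearance of mitochondria and bacteria, had the largest fold change of the receptors against untreated cells, whereas between 0.15 and 1 µM SQSTM1 differed more (2.56 against 1.16 on the log2 scale). It stood at 7.11, 7.41 and 6.33 CPM in untreated libraries, at 30.7, 33.3 and 41.7 CPM at 0.15 µM and at 48.0, 54.8 and 40.5 CPM at 0.25 µM. It stood at 90.04, 86.5 and 69.8 CPM at 0.5 µM and at 79.2, 78.0 and 79.3 CPM at 1 µM. All treated libraries exceeded the untreated ones, and the upper doses exceeded the lower. Its log2 fold change was 2.34 at 0.15 µM (SE 0.16, edgeR adjusted p = 1.1e-09) and 3.50 at 1 µM (SE 0.17, edgeR adjusted p = 2.59e-12). NBR1, a receptor related to SQSTM1 in its domains, stood at 89.7, 97.8 and 111 CPM in untreated libraries, at 67.7, 75.2 and 68.5 CPM at 0.15 µM, at 93.9, 99.1 and 111 CPM at 0.25 µM, at 153, 173 and 159 CPM at 0.5 µM and at 159, 141 and 164 CPM at 1 µM. It lay below untreated at 0.15 µM, overlapped it at 0.25 µM and lay above it at the upper doses. Its log2 fold change was -0.50 at 0.15 µM (SE 0.13, edgeR adjusted p = 0.00346), a call not made with library totals (-0.14), and 0.63 at 1 µM (SE 0.13, edgeR adjusted p = 0.000286). CALCOCO2, which encodes NDP52, averaged 68.6 ± 7.28 CPM untreated and 134 ± 9.84 CPM at 1 µM (SD, n = 3), and was higher by a log2 fold change of 0.96 (SE 0.13, edgeR adjusted p = 4.32e-06). TAX1BP1, with means of 119 CPM untreated and 122 CPM at 1 µM, was called at no dose against untreated cells.

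MAP1LC3B, SQSTM1, NBR1 and ATG4A were thus the 4 members with a lower call at 0.15 µM, a higher one at 1 µM and a call between them, a pattern that 0.536% of all genes met. This share and that of the reverse pattern were counted with TMM factors over all genes, and not among genes with at least 10 CPM. At 0.15 µM 40.2% of the genes of that level were called lower, against 19.4% of all genes. The reverse pattern, met by 1.43% of all genes, was not met by any member, although ATG5 and FUNDC1 met it with library totals and also when the TMM factors were restricted to genes of 10 CPM or more. Under these scalings MAP1LC3B alone of the 4 kept the pattern, beside BNIP3 and PIK3R4. The comparisons of both doses with untreated cells share the untreated libraries. A further 7 members were higher at all 4 doses (WIPI1, ATG16L2, OPTN, TP53INP1, TP53INP2, PINK1 and BNIP3L) and 7 lower at all 4 (UVRAG, ATG9A, ATG3, ATG4D, ATG7, GABARAP and BCL2L13), of which ATG3 alone was called lower at both 0.15 and 1 µM under all 4 scalings. Called at no dose against untreated were 5 members, ATG13, ATG101, AMBRA1, ATG2B and TAX1BP1. The shares of all genes called at all 4 doses, or at none, were not counted. At single doses 31.9% to 39.4% of all genes were called higher and 19.4% to 27.6% lower, which does not give those shares. These counts are therefore a list of members and are not read as a trait of them. The panels of levels by library show 12 members of these kinds.

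**Figure D4:**
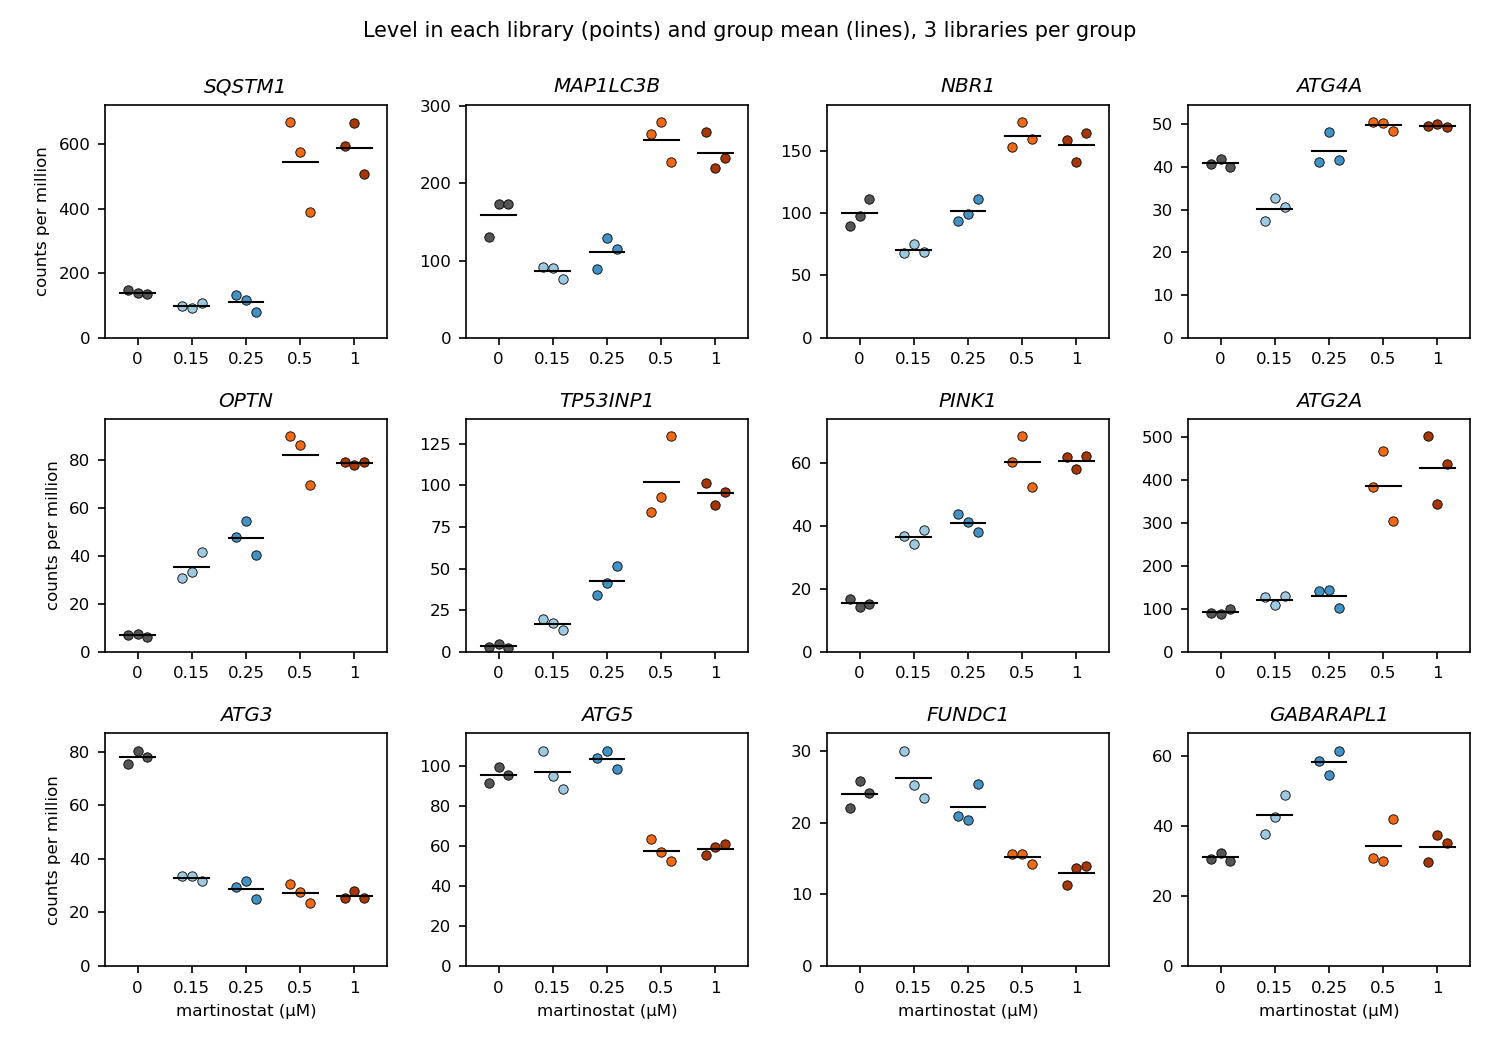
CPM on TMM-scaled library sizes of 12 members in each library (points) and the group means (lines), by martinostat dose in µM. SQSTM1 lies at 78.2 to 147 CPM up to 0.25 µM and at 389.8 to 668 CPM at 0.5 and 1 µM, whereas ATG3 lies at 75.4 to 80.5 CPM in untreated libraries and at 33.7 CPM or lower in all treated ones.

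The fusion genes and co-factors included the steepest rise of all members. TP53INP1, a target of p53 that binds ATG8 proteins, stood at 3.19, 4.59 and 2.54 CPM in untreated libraries, at 19.5, 17.2 and 12.9 CPM at 0.15 µM and at 34.4, 41.6 and 51.7 CPM at 0.25 µM. It stood at 84.0, 93.0 and 129 CPM at 0.5 µM and at 101, 88.4 and 96.3 CPM at 1 µM. The groups from untreated to 0.5 µM did not overlap one another, and those at 0.5 and 1 µM did. The log2 fold change was 2.26 at 0.15 µM (SE 0.23, edgeR adjusted p = 2.04e-07) and 4.79 at 1 µM (SE 0.25, edgeR adjusted p = 7.64e-12). K562 cells are known to lack functional p53. TP53INP2, its paralogue, averaged 15.5 ± 3.28 CPM untreated, 31.2 ± 1.57 CPM at 0.15 µM and, with 1 µM, 54.8 ± 4.66 CPM (SD, n = 3). EPG5, a tether between autophagosome and lysosome, stood at 28.3, 34.6 and 29.9 CPM in untreated libraries, at 30.3, 33.04 and 23.8 CPM at 0.15 µM, at 36.1, 46.9 and 49.8 CPM at 0.25 µM, at 90.6, 97.4 and 108 CPM at 0.5 µM and at 97.6, 77.9 and 102 CPM at 1 µM. It overlapped untreated at 0.15 µM and lay above from 0.25 µM on, with a log2 fold change at 1 µM of 1.58 (SE 0.16, edgeR adjusted p = 9.3e-08). STX17, the SNARE protein of the autophagosome, averaged 76.4, 56.9, 69.7, 85.3 and 81.6 CPM from untreated to 1 µM and was higher at 1 than at 0.15 µM by a log2 difference of 0.52 (SE 0.15, edgeR adjusted p = 0.00866).

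Of the 5 mitophagy genes, PINK1 and BNIP3L were higher at 1 µM and FUNDC1 and BCL2L13 lower, under all 4 scalings. That is 40% each way, where 26.4% of the genes with at least 10 CPM were called higher and 48.4% lower. PINK1, the kinase that accumulates on damaged mitochondria, stood at 16.8, 14.2 and 15.2 CPM in untreated libraries, at 36.9, 34.2 and 38.8 CPM at 0.15 µM and at 43.8, 41.3 and 37.96 CPM at 0.25 µM. It stood at 60.4, 68.5 and 52.3 CPM at 0.5 µM and at 62.0, 58.1 and 62.2 CPM at 1 µM. All treated libraries exceeded the untreated ones, and the upper doses exceeded the lower. The log2 fold change was 1.25 at 0.15 µM (SE 0.13, edgeR adjusted p = 3.87e-07) and 1.98 at 1 µM (SE 0.14, edgeR adjusted p = 3.29e-10). An antisense gene, PINK1-AS, and a small RNA gene cover 41.7% of its exon bases, and the strand setting of the counting is not given in the sources used here. BNIP3L, a receptor known for clearing mitochondria from maturing red cells, averaged 53.0 ± 4.07 CPM untreated, 104 ± 14.2 CPM at 0.15 µM and, with 1 µM, 111 ± 3.32 CPM (SD, n = 3), a log2 fold change of 1.07 at 1 µM (SE 0.14, edgeR adjusted p = 2.11e-06). Over the same libraries the summed erythroid markers were 2603 to 2829 CPM untreated and 751 to 901 CPM at 1 µM, and their part in this result was not tested.

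BNIP3, the paralogue of BNIP3L, averaged 60.4 ± 1.58 CPM untreated, 35.7 ± 2.97 and 35.2 ± 5.62 CPM at the lower doses and 61.1 ± 12.2 and 59.8 ± 5.27 CPM at the upper doses (SD, n = 3). It was lower at 0.15 µM (log2 fold change -0.76, SE 0.16, edgeR adjusted p = 0.000517), a call held in all 24 alternatives, and its reads may be shared with pseudogenes of the same name. FUNDC1, a receptor of the outer membrane linked to low oxygen, stood at 22.1, 25.8 and 24.1 CPM in untreated libraries, at 30.1, 25.2 and 23.4 CPM at 0.15 µM, at 20.9, 20.3 and 25.4 CPM at 0.25 µM, at 15.6, 15.6 and 14.3 CPM at 0.5 µM and at 11.3, 13.7 and 14.0 CPM at 1 µM. The lower doses overlapped untreated and the upper doses lay below, with a log2 fold change at 1 µM of -0.88 (SE 0.15, edgeR adjusted p = 5.35e-05). BCL2L13, a receptor of the BCL2 family, fell at all doses, from 169 ± 5.25 CPM to 97.2 ± 3.31 CPM at 1 µM (SD, n = 3).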

How the data were processed

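Poly(A) RNA of K562 cells was sequenced from 15 libraries with a directional kit. The deposited counts per gene are raw whole numbers: the authors trimmed reads (Trim Galore 0.6.10, and Trimmomatic), aligned them to hg38 (HISAT2 2.2.1), sorted them (SAMtools 1.21) and counted them with featureCounts 1.5.3 on GENCODE release 38. The strand setting and the treatment of overlapping genes are not given in the sources used here. The authors also deposited FPKM values per library, used here only for a check of the counts. Symbols, positions and overlaps came from GENCODE release 44, also on hg38.

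Counts were tested with edgeR 4.0.16 in R 4.3.3 (filterByExpr with a minimum count of 10, TMM, robust quasi-likelihood fit of all 15 libraries with group as the only term, 10 residual degrees of freedom, Benjamini-Hochberg adjustment over 23711 genes, call under 0.05). Levels are CPM, and their precision is set by totals of 23755510 to 32805574 counts. Counting error only is covered by any floor of 3 counts. Shares of ATG8 genes were compared by exact permutation tests that went through every arrangement of the libraries (Python 3.11.15). The fit was also run on simulated counts with as many genes raised as lowered at 1 µM. No shift in scaling between untreated and treated libraries was built in, so that run cannot bear on how calls depend on the scaling. Full statistics are given for the called members with the highest and lowest log2 fold change at 1 µM in each role, for members with opposite calls at 0.15 and 1 µM, and for SQSTM1 and PINK1; further values were chosen after they were seen. The members and lists were chosen with earlier results of these data known. Alternatives were DESeq2 1.42.0, other scalings and filters, a replicate block, fits of only the groups compared, and fits without each library. Fits without the 2 libraries that stand apart were added after seeing the data. Replicate numbers did not pair the libraries: deviations of same-numbered libraries correlated at -0.0663 to 0.579, and in 1 of 10 pairs of groups were all correlations over 0.1.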

Additional observations from a re-analysis of the deposited data

How the results depend on the processing

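The number of members called against untreated cells depended on the scaling. With TMM factors restricted to genes of 10 CPM or more, and with library totals, the higher members at 0.15 µM became 15 and 16 (8 in the report) and the lower ones 6 and 5 (19). At 0.25 µM library totals gave 25 higher (14) and the lower ones (15) became 7 and 3. At 0.5 µM they gave 29 and 30 higher (19) and 4 and 5 lower (11), and at 1 µM 30 and 29 higher (19) and 5 and 5 lower (14). Both gave 2 members higher at 0.15 and lower at 1 µM (0). RLE factors gave 7 lower at 0.5 µM, and a minimum of 10 counts in every library gave 8, 7 and 6 lower at 0.25, 0.5 and 1 µM. Leaving out 1 library gave 7 to 11 lower at 0.5 µM (7 without untreated replicate 3) and 9 to 14 at 1 µM (9 without untreated replicate 2).

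Between 0.15 and 0.25 µM, higher members (4) became 8 without the 2 libraries that stand apart, 11 with DESeq2, 8 with RLE, 12 with the restricted TMM factors, 11 with the minimum count and 10 with library totals, and 3 to 7 without 1 library (7 without replicate 3 at 0.5 µM). Lower members (1) became 2 without those 2 libraries, 2 with no filter, 0 with only the 2 groups compared, and 0 to 2 without 1 library. Lower members between 0.15 and 1 µM (4) became 2 with DESeq2, RLE, the restricted TMM factors, the minimum count and no filter, and 2 to 6 without 1 library. The 4 members lower at 0.15 and higher at 1 µM became 2 to 5, with 2 in 10 of 15 such fits, and leaving out any untreated or any 1 µM library was enough. The higher counts between 0.15 and 1 µM (23) and both counts between 0.25 and 0.5 µM (18 and 3) stayed within 1.5 times in all alternatives. Against untreated, the treated share of GABARAP differed by -0.628 to -0.386 points and that of GABARAPL2 by 5.92 to 7.98 points without 1 library, and both lost the call without untreated replicate 2 or 3.

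The log2 fold change of BNIP3 at 1 µM turned from -0.02 to 0.37 with the restricted TMM factors and 0.34 with library totals, and that of PIK3C3 from -0.37 to 0.0095 with the former. Of the members' calls, 10 of 27 at 0.15 µM, 22 of 33 at 1 µM and 21 of 27 between these doses held in all 24 alternatives. The replicate block gave 8 higher with 19 lower members at 0.15 µM, 18 with 13 at 1 µM and 24 with 4 between them, with 3 members lower then higher; 7 of 15 libraries correlated best with their own number, and the numbers do not pair libraries by design. ULK2, a gene of few counts, is limited by depth, and the few counts of GABARAP cannot be read as its level. The causes were not tested beyond what each alternative changes.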

Other observations

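Among 58 further genes of the pathway that are not members, 15 were higher and 13 lower at 0.15 µM and 30 higher and 14 lower at 1 µM (edgeR, adjusted p under 0.05), and 26 were higher and 10 lower at 1 than at 0.15 µM. As shares these were 25.9% and 22.4% at 0.15 µM (all genes, 31.9% and 19.4%), 51.7% and 24.1% at 1 µM (38.8% and 27.5%) and 44.8% and 17.2% between the doses (21.5% and 23.1%), and the shares of all genes at 1 µM are also the background of the counts by group that follow. These counts were made with TMM factors only. Of 17 genes of nutrient and energy signalling, 8 were higher and 6 lower at 1 µM. MLST8, a subunit of the mTOR complexes, averaged 150 CPM untreated and 42.1 CPM at 1 µM (log2 fold change -1.84, SE 0.30, edgeR adjusted p = 6.65e-05). PRKAA2, a catalytic subunit of AMPK, had 0 counts in all untreated libraries and averaged 0.499 CPM at 1 µM, at least 4.21-fold higher against a floor of 3 counts per library. Of 7 transcription factors, 5 were higher and 1 lower. TFEB, which drives lysosomal and autophagy genes, averaged 15.2 CPM untreated, 33.7 CPM at 0.15 µM and 32.0 CPM at 1 µM, where the log2 fold change was 1.07 (SE 0.28, edgeR adjusted p = 0.00269). ATF4, the factor of the integrated stress response, averaged 382 CPM untreated and 153 CPM at 1 µM (log2 fold change -1.32, SE 0.19, edgeR adjusted p = 6.07e-06).

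Of 19 further genes of the machinery, 10 were higher and 4 lower at 1 µM. VAMP8, a SNARE protein of the lysosome that pairs with STX17, averaged 115 CPM untreated and 20.9 CPM at 1 µM (log2 fold change -2.46, SE 0.29, edgeR adjusted p = 1.7e-06). RUBCNL, which promotes autophagosome maturation, had 0 counts in untreated libraries and averaged 1.10 CPM at 1 µM, at least 9.27-fold higher against the same floor. Of 15 further receptors and mitophagy genes, 7 were higher and 3 lower. CALCOCO1, a receptor for the endoplasmic reticulum, averaged 15.7 CPM untreated and 171 CPM at 1 µM (log2 fold change 3.44, SE 0.23, edgeR adjusted p = 1.91e-10). PHB2, a mitochondrial inner membrane protein that can bind LC3, averaged 519 CPM untreated and 187 CPM at 1 µM (log2 fold change -1.47, SE 0.27, edgeR adjusted p = 0.000138).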
